A study of Mus musculus with 8 samples.

Results

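The interaction of BMP4 with TGFb1 in mouse esophageal organoids is the amount by which the effect of BMP4 on a gene differed between organoids given TGFb1 and organoids whose TGFb receptors were inhibited. It was computed for each gene as the BMP4 effect with TGFb1 (TGFb1 + BMP4 minus TGFb1) minus the BMP4 effect with inhibitor (BMP4 + inhibitor minus inhibitor), in log2(CPM + 1), where CPM is the deposited value scaled to the same total in each library. An interaction of 0 means that the 2 ligands added up on the log2 scale. A negative value means that the level with both ligands lay below the sum of the 2 single effects, and a positive value that it lay above. Of 52636 genes in the table, 16180 reached 1 CPM or more in at least 2 libraries and were tested, and 208 of these (1.29%) deviated from the sum at an adjusted p under 0.05: 160 lay below it and 48 above it.

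The data were bulk RNA-seq of 8 libraries in 4 groups of 2: TGFb1 + BMP4, TGFb1, BMP4 + inhibitor, and inhibitor. All were organoids of esophageal epithelial cells from wild-type mice, grown in matrigel (a basement membrane gel) with KSFM medium for 13 days, with the treatment given for 72 h and renewed every 24 h. TGFb1 was used at 1 ng/ml, BMP4 at 20 ng/ml, and the inhibitor, A8301, which blocks the type I receptors of TGFb and activin, at 500 nM. The labels list no inhibitor for the 2 groups with TGFb1, so the presence of TGFb1 and the absence of inhibitor cannot be told apart, and each single effect is measured against inhibitor alone. Whether paired libraries within a group derive from different animals or cultures is not stated, so the p-values measure the spread between libraries, which may be technical.

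TGFb and BMP ligands belong to the same superfamily and bind separate pairs of type I and type II receptors. TGFb receptors phosphorylate SMAD2 and SMAD3, BMP receptors phosphorylate SMAD1, SMAD5 and SMAD9, and both sets of SMADs share the partner SMAD4. In stratified epithelia TGFb is known for holding back proliferation and for inducing matrix genes, and BMP for steering differentiation, with the Id genes and the inhibitory SMADs among its direct targets.

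The promoters of 4 genes that stand for the 3 kinds of outcome are shown here. Smad6 and Id3 were raised by BMP4 in both settings with no called interaction. The BMP4 effect on Id3 was 4.23 log2 with TGFb1 and 2.31 log2 with inhibitor. Krt10 lay far below the sum, and C1qtnf3 lay above it. Each window runs from 250 bases before to 50 bases after the RefSeq start, 5′ to 3′ on the gene's strand, from RefSeq on GRCm38.p6: chr9:64022010-64022309 on the minus strand, chr4:136143572-136143871 on the plus strand, chr11:99389315-99389614 on the minus strand and chr15:10952082-10952381 on the plus strand. Capitals mark CAGAC or its reverse complement GTCTG, a short sequence that SMAD3 and SMAD4 can bind. Other forms of SMAD3 and SMAD4 site were not searched. A window without capitals, such as that of Smad6, is therefore not shown to lack one. The palindrome GGCGCC, a core of the GC-rich elements that BMP SMADs can bind, had no match in these 4 windows.
Smad6: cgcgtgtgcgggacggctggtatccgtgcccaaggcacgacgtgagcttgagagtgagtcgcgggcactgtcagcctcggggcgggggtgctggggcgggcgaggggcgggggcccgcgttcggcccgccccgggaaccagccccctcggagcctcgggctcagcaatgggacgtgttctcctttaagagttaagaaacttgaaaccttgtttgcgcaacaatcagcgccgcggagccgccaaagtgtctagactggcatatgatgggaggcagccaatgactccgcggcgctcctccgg
Id3: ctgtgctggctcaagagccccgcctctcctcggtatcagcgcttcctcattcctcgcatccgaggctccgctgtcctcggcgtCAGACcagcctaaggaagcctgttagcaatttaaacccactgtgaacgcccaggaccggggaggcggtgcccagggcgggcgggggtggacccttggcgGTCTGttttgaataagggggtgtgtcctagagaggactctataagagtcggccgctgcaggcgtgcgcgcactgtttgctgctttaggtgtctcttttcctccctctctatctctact
Krt10: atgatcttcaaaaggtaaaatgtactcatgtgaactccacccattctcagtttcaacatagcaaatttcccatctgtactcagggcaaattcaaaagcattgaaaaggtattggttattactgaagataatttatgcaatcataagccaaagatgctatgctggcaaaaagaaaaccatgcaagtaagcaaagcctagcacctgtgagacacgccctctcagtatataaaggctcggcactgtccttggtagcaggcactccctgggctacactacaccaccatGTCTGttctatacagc
C1qtnf3: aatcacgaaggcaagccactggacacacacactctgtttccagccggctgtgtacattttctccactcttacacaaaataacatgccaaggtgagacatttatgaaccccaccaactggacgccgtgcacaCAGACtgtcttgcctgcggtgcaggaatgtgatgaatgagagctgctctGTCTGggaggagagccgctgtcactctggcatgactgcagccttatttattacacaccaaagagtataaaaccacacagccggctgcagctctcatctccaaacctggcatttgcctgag
A window was available for 9559 of the 16180 tested genes. CAGAC or GTCTG was in 48% of all these windows, in 46.8% of the windows of 77 genes called below the sum and in 42.1% of those of 38 genes called above it. Among 41 genes that BMP4 raised in both settings with no called interaction, as it did Smad6 and Id3, it was in 29.3%. GGCGCC was in 21.2% of all windows, in 15.6% of those of genes below the sum, in 28.9% of those of genes above it and in 26.8% of those raised in both settings. These shares describe letters in a 300 base window and say nothing about binding.

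The deviations ran mostly one way. The 160 genes below the sum were 0.989% of the genes tested and the 48 above it 0.297%, by limma with Benjamini-Hochberg adjustment, and the lowest adjusted p was 0.00744. In 186 of the 208 genes the deviation had the sign opposite to that of the summed single effects, so that the 2 ligands gave less than their sum, and in 22 they gave more. The interaction and the summed single effects share libraries with opposite sign, which favours opposite signs by construction, so this split is a description. Without TGFb1 replicate 1 it was 49 genes less and 44 more than additive. With the replicate number as a block, which the replicate numbers in the labels allow, 689 genes lay below the sum (4.26%) and 428 above it (2.65%). All 208 genes stayed called. Every group holds both replicate numbers, so the block leaves the estimates unchanged and no direction could differ. The total was 0 without inhibitor replicate 1 (2690 at an unadjusted p under 0.05, against 3068 with all libraries), 4 without inhibitor replicate 2, 5 without BMP4 + inhibitor replicate 1, 93 without TGFb1 replicate 1, 4 without TGFb1 replicate 2, and 3 without either TGFb1 + BMP4 library. It was 602 without BMP4 + inhibitor replicate 2. All 208 genes kept their direction in these 8 fits, but 14 of them were called in none of the 8 and 151 in 1 of them. Upk3bl and Vwa1 held in 7, with a highest adjusted p of 0.0568.

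**Figure D1:**
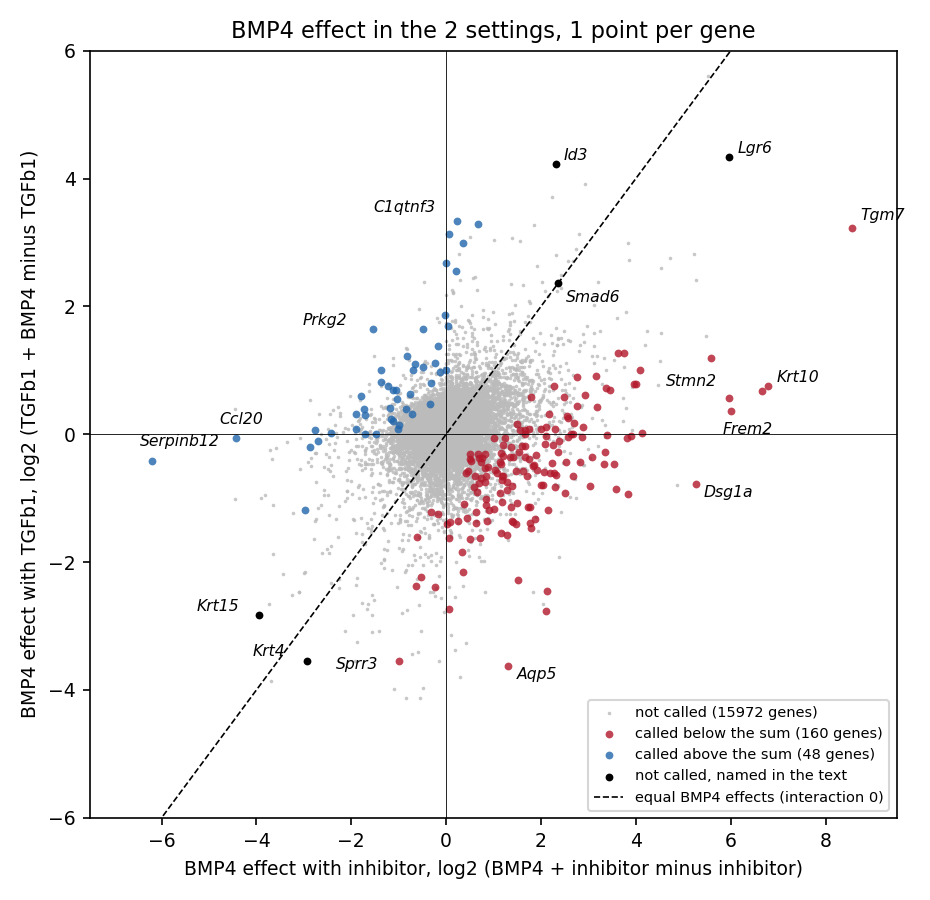
BMP4 effect with TGFb1 (y axis, log2) against BMP4 effect with inhibitor (x axis, log2) for the 16180 genes tested, 1 point per gene, with genes called below the sum in red, above it in blue and named genes that were not called in black. Of the 160 genes below the sum, the 116 that BMP4 raised with inhibitor and that were not called with TGFb1 lie right of the vertical axis. Their x values run from 0.50 to 6.79 with a median of 1.96, and their median y value is -0.34. The 48 genes above the sum lie to the left or near the vertical axis.

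Genes that were not called cannot be taken as additive. Of 15972 genes not called, 8037 had a 95% interval of the interaction wholly within 1 log2 unit of the sum, and 7935 had an interval that reached past it. The median half-width of the interval was 0.64. The median interaction over all genes was 0.119, and with median-of-ratios scaling it was 0.008, a shift of -0.111, so values near this size depend on the scaling. Under that scaling 174 genes lay below the sum and 39 above it.

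BMP4 raised 149 genes (0.921%) and lowered 177 (1.09%) in organoids with TGFb1, and raised 889 (5.49%) and lowered 471 (2.91%) in organoids with inhibitor. These 2 BMP4 comparisons share no library. Of the 889 genes raised with inhibitor, 77 were also called higher with TGFb1, which is 51.7% of the 149 and 8.66% of the 889. Their median BMP4 effect was 0.31 with TGFb1 and 1.28 with inhibitor, against a median of 0.13 over all genes with TGFb1. The effect was above 0 with TGFb1 in 73.1% of the 889, against 68.3% of all genes, and with median-of-ratios scaling in 63.6%, against 51.9% of all genes. Of the 471 genes lowered with inhibitor, 48 were also called lower with TGFb1, which is 27.1% of the 177 and 10.2% of the 471. The effect was below 0 with TGFb1 in 70.1% of the 471, against 31.7% of all genes, and with median-of-ratios scaling in 79.8%, against 48.1% of all genes.

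Smad6, Nog and Smad7, 3 genes of the BMP feedback loop, were raised by BMP4 both with TGFb1 and with inhibitor. Smad6, an inhibitory SMAD induced by BMP, had 27.7 and 25.2 CPM with TGFb1 + BMP4, 4.35 and 4.30 CPM with TGFb1, 27.8 and 16.4 CPM with BMP4 + inhibitor and 3.1 and 3.65 CPM with inhibitor. All 4 libraries with BMP4 lay above all 4 without it. BMP4 raised it by 2.36 ± 0.25 log2 with TGFb1 and by 2.36 ± 0.25 log2 with inhibitor (SE), and the interaction was 0.00, with a 95% interval of -0.83 to 0.84 (limma, adjusted p = 0.996). Nog, which encodes the secreted BMP antagonist noggin, had 12.2 and 9.19 CPM with TGFb1 + BMP4, 0.300 and 0.650 CPM with TGFb1, 34.4 and 16.7 CPM with BMP4 + inhibitor and 0.700 and 0.800 CPM with inhibitor. It rose by 2.99 ± 0.34 log2 with TGFb1 and 3.84 ± 0.34 log2 with inhibitor. Its interaction of -0.85 was not called (adjusted p = 0.377, interval -2.02 to 0.31). Smad7, the inhibitory SMAD that both pathways induce, was raised by BMP4 in both settings and by TGFb1 alone. It had 145 and 117 CPM with TGFb1 + BMP4, 62.1 and 48.2 CPM with TGFb1, 76.5 and 61.2 CPM with BMP4 + inhibitor and 26.9 and 20.6 CPM with inhibitor. The double group was the highest and the inhibitor group the lowest, and the single-ligand groups overlapped. Its interval, -0.96 to 0.43, lay within 1 log2 unit of the sum.

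The Id genes encode proteins that block basic helix-loop-helix transcription factors and are classic BMP targets. They split. Id3 had 328 and 284 CPM with TGFb1 + BMP4, 10.9 and 21.2 CPM with TGFb1, 288 and 243 CPM with BMP4 + inhibitor and 41.8 and 66.3 CPM with inhibitor. The groups with BMP4 lay close together, and the TGFb1 group lay below the inhibitor group. BMP4 raised Id3 by 4.23 ± 0.33 log2 with TGFb1 and by 2.31 ± 0.33 log2 with inhibitor. The interaction of 1.93 ± 0.47 had an adjusted p of 0.118 in limma, and 0.0452 with the replicate block. Id1 had an interaction of 0.99 (interval -0.14 to 2.12), with 213 and 157 CPM with TGFb1 + BMP4, 23.8 and 51.7 CPM with TGFb1, 231 and 219 CPM with BMP4 + inhibitor and 88.4 and 85.3 CPM with inhibitor. Id2 went the other way: it had 147 and 140 CPM with TGFb1 + BMP4, 99.9 and 91.7 CPM with TGFb1, 66.3 and 44.2 CPM with BMP4 + inhibitor and 9.84 and 7.95 CPM with inhibitor. Each ligand alone raised Id2, by 3.3 log2 for TGFb1 and 2.48 ± 0.20 log2 for BMP4, and BMP4 added 0.58 ± 0.20 log2 on top of TGFb1, which was not called (adjusted p = 0.19). The interaction was -1.91 ± 0.28 (adjusted p = 0.042 in limma, 0.173 at most with 1 library left out). Bambi, a decoy receptor without kinase activity for both ligand types, was also below the sum at -2.37 ± 0.33 (adjusted p = 0.0353). It had 17.3 and 16.3 CPM with TGFb1 + BMP4, 6.65 and 6.2 CPM with TGFb1, 41.1 and 25.6 CPM with BMP4 + inhibitor and 1.60 and 1.80 CPM with inhibitor, so that both single-ligand groups exceeded inhibitor and the double group lay between them.

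Over the list of BMP response genes, 21 of 24 were tested. With TGFb1, 7 were raised by BMP4 and 0 lowered, and with inhibitor 10 were raised and 0 lowered. Over all genes BMP4 raised 0.921% with TGFb1 and 5.49% with inhibitor. Of the 21 genes, 2 lay below the sum, Id2 and Bambi, against 0.989% of all genes, and 0 above it. Their median interaction was -0.26, against 0.12 over all genes. Atoh8, a transcription factor induced by BMP, was raised in both settings, by 3.13 log2 with TGFb1 and 2.80 log2 with inhibitor, and was chosen for mention after its values were seen. So was Id4, raised by 3.28 log2 with TGFb1 and 1.86 log2 with inhibitor.

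Krt10, Tgm7, Dsg1a and Frem2 were among the 5 named genes furthest below the sum, together with Stmn2, and their BMP4 effect with TGFb1 was far smaller than with inhibitor. Krt10 (chr11:99385254-99389364, GRCm38, minus strand), a keratin of suprabasal epidermis, had 241 and 162 CPM with TGFb1 + BMP4, 153 and 89.3 CPM with TGFb1, 957 and 649 CPM with BMP4 + inhibitor and 11.2 and 3.15 CPM with inhibitor. The BMP4 + inhibitor libraries were the highest and the inhibitor libraries the lowest, and with TGFb1 the groups with and without BMP4 nearly met. The BMP4 effect was 0.75 ± 0.53 log2 with TGFb1 (adjusted p = 0.481), and BMP4 raised Krt10 by 6.79 ± 0.53 log2 with inhibitor, an interaction of -6.04 ± 0.75 (adjusted p = 0.0313, range 0.033 to 0.097 with 1 library left out). The antisense gene Gm11940 overlaps Krt10 and was also called below the sum, and reads of the 2 cannot be told apart unless the counting used the strand. Tgm7 (chr2:121093565-121109795, minus strand), a member of the transglutaminase family of protein crosslinking enzymes, had 18.1 and 10.1 CPM with TGFb1 + BMP4, 0.750 and 0.400 CPM with TGFb1, 810 and 573 CPM with BMP4 + inhibitor and 1.25 and 0.450 CPM with inhibitor. BMP4 raised it in both settings, by 3.22 ± 0.35 log2 with TGFb1 and by 8.56 ± 0.35 log2 with inhibitor, and the interaction was -5.34 ± 0.49 (adjusted p = 0.0197). Of the 7 transglutaminase genes tested, 1 was called for the interaction, Tgm7, and 3 lay below the sum with the replicate block, with Tgm3 and Tgm5 added.

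In other genes the BMP4 response was called with inhibitor, and the level stayed at or under 10.2 CPM in every library with TGFb1. Frem2, an extracellular matrix protein of the epithelial basement membrane, had 0.200 and 1.85 CPM with TGFb1 + BMP4, 0.200 and 0.700 CPM with TGFb1, 95.6 and 57.4 CPM with BMP4 + inhibitor and 0.300 and 0.05 CPM with inhibitor. Only the BMP4 + inhibitor libraries exceeded 2 CPM. Dsg1a, a desmosomal cadherin of differentiated keratinocytes, had 1.75 and 1.90 CPM with TGFb1 + BMP4, 1.1 and 10.2 CPM with TGFb1, 775 and 945 CPM with BMP4 + inhibitor and 26.2 and 17.3 CPM with inhibitor. TGFb1 alone lowered Dsg1a, with an effect of -2.2 log2, and BMP4 raised it by 5.26 ± 0.70 log2 with inhibitor, for an interaction of -6.04 ± 0.99 (adjusted p = 0.0475). Its close relatives Dsg1b and Dsg1c may share reads with it, and their interactions of -2.2 and -1.91 were not called, although that of Dsg1c had an adjusted p of 0.0397 with the replicate block. Slurp1, a secreted Ly6 family protein of squamous epithelium, had 0.300 and 0.350 CPM with TGFb1 + BMP4, 0.15 and 0.600 CPM with TGFb1, 16.2 and 20.6 CPM with BMP4 + inhibitor and 0.300 CPM in both inhibitor libraries (interaction -3.93 ± 0.31, adjusted p = 0.018). Aox4, an aldehyde oxidase, had 0 and 0.300 CPM with TGFb1 + BMP4, 0.15 and 0.1 CPM with TGFb1, 28.7 and 27.8 CPM with BMP4 + inhibitor and 1.20 and 0.250 CPM with inhibitor (interaction -4.12 ± 0.41, adjusted p = 0.0216). Its antisense neighbour Gm15759 was also called below the sum. Trabd2b, which encodes a membrane metalloprotease that cleaves Wnt ligands, had 6.70 and 2.10 CPM with TGFb1 + BMP4, 1.15 and 1.1 CPM with TGFb1, 113 and 102 CPM with BMP4 + inhibitor and 1.80 and 0.800 CPM with inhibitor (interaction -4.39 ± 0.60, adjusted p = 0.0353). In these 5 genes every BMP4 + inhibitor library lay above every other library. Krt76 and Krt24, keratins of differentiated stratified epithelium picked out after their values were seen, had the same pattern, with 1.1 to 1.45 CPM and 0 to 0.05 CPM over the 4 libraries with TGFb1. Most of these calls depend on the 1 CPM added before the log. With 0.1 CPM added, the adjusted p by limma was 0.0626 for Frem2, 0.081 for Dsg1a, 0.0856 for Aox4 and 0.0557 for Trabd2b. For Slurp1 it was 0.0386.

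**Figure D2:**
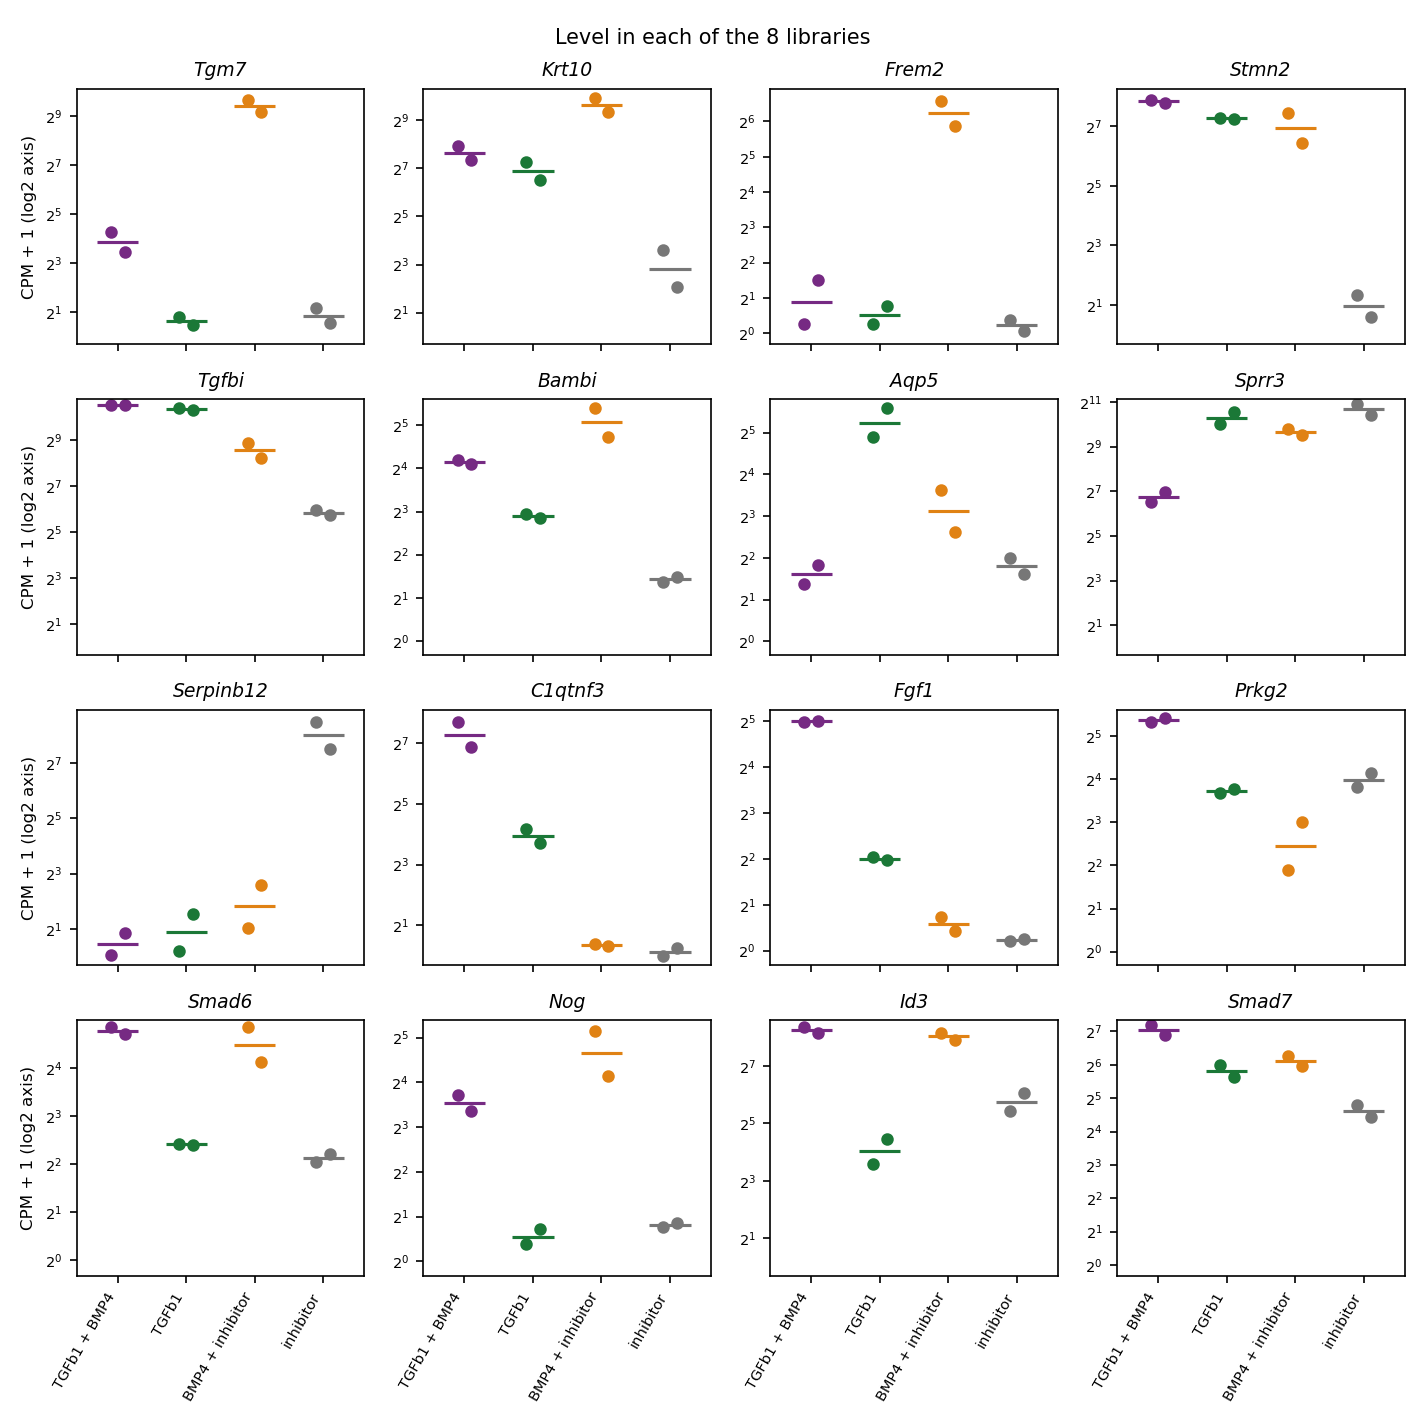
CPM + 1 on a log2 axis in each of the 8 libraries for 16 genes, with the groups TGFb1 + BMP4, TGFb1, BMP4 + inhibitor and inhibitor from left to right, points for libraries and a line at the mean of the logs. Tgm7, Krt10 and Frem2 are high with BMP4 + inhibitor and much lower with both ligands, C1qtnf3 and Fgf1 are highest with both ligands, and Smad6 has the same step with and without TGFb1.

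Many genes below the sum were raised by either ligand alone. Of the 160 genes below the sum, 85 were called higher both with TGFb1 against inhibitor and with BMP4 against inhibitor. Over all 16180 genes tested, 538 were called higher in both, and 20% with TGFb1 against inhibitor. In 68 of the 85 the mean with both ligands was no higher than the higher of the 2 single-ligand means. The 85 were chosen on effects that share libraries with the interaction. That choice favours a low level with both ligands, so these counts are descriptions. Stmn2, which encodes a microtubule-destabilising phosphoprotein best known from neurons, had 235 and 220 CPM with TGFb1 + BMP4, 155 and 152 CPM with TGFb1, 171 and 84.8 CPM with BMP4 + inhibitor and 1.55 and 0.5 CPM with inhibitor. Its 6 libraries with a ligand were all far above the 2 without one. With TGFb1 the BMP4 effect was 0.56 ± 0.36 log2, not called, and BMP4 raised Stmn2 by 5.96 ± 0.36 log2 with inhibitor, an interaction of -5.40 ± 0.51 (adjusted p = 0.0198). Upk3bl, a uroplakin-like membrane protein, had 4.15 and 5.45 CPM with TGFb1 + BMP4, 10.3 and 9.64 CPM with TGFb1, 60.2 and 70.7 CPM with BMP4 + inhibitor and 3.05 and 4.25 CPM with inhibitor. Here the level with both ligands was under that with either alone, and the interaction was -4.77 ± 0.28 (adjusted p = 0.00881). Trim2, a ubiquitin ligase, had 12.3 and 19.2 CPM with TGFb1 + BMP4, 23.9 and 33.9 CPM with TGFb1, 78.5 and 40.2 CPM with BMP4 + inhibitor and 4.65 and 3.05 CPM with inhibitor (interaction -4.43 ± 0.54, adjusted p = 0.0282).

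Genes that TGFb is known to induce were also among those below the sum. Of 26 TGFb response genes tested, 6 lay below the sum, among them Tgfbi, Cdkn2b, Itgb6, Thbs1 and Col7a1, and 0 above it, with a median interaction of -0.62. TGFb1 alone raised 18 of the 26, and BMP4 raised 11 with inhibitor and 2 with TGFb1. Over all genes tested these shares were 20%, 5.49% and 0.921%, and 0.989% lay below the sum. Tgfbi, a secreted matrix protein, had 1475 and 1467 CPM with TGFb1 + BMP4, 1337 and 1258 CPM with TGFb1, 469 and 299 CPM with BMP4 + inhibitor and 62 and 52.4 CPM with inhibitor. The BMP4 effect was 0.18 ± 0.21 log2 with TGFb1, not called, and BMP4 raised Tgfbi by 2.70 ± 0.21 log2 with inhibitor (interaction -2.51 ± 0.30, adjusted p = 0.026). Cdkn2b, the cell cycle inhibitor p15, had 171 and 129 CPM with TGFb1 + BMP4, 131 and 108 CPM with TGFb1, 63.0 and 44.7 CPM with BMP4 + inhibitor and 10.5 and 11.6 CPM with inhibitor (interaction -1.84 ± 0.30, adjusted p = 0.0475, and 0.0543 with median-of-ratios scaling). Itgb6, an integrin chain that activates latent TGFb, was one of 3 genes below the sum that BMP4 still raised in both settings, with Tgm7 and Ctnnd2. It had 469 and 507 CPM with TGFb1 + BMP4, 318 and 264 CPM with TGFb1, 279 and 246 CPM with BMP4 + inhibitor and 54.2 and 52.5 CPM with inhibitor, and an interaction of -1.53 ± 0.18 (adjusted p = 0.026). Pmepa1 and Skil, which encode negative regulators of TGFb signalling, had interactions of -1.19 and -0.91 with adjusted p of 0.16 and 0.0728, and 0.0406 and 0.0184 with the replicate block.

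Matrix genes had the lowest median interaction among lists with 5 or more members tested. Of 39 extracellular matrix genes tested, 4 lay below the sum (Thbs1, Tnc, Col7a1 and Col12a1) and 0 above it, 38 had an estimate below 0, and the median interaction was -1.81. With the replicate block 18 lay below. Over all genes tested, 0.989% lay below the sum, 4.26% did with the block, and 6333 of 16180 estimates were below 0. Thbs1, a matricellular protein, had 350 and 343 CPM with TGFb1 + BMP4, 466 and 498 CPM with TGFb1, 99.3 and 133 CPM with BMP4 + inhibitor and 5.60 and 14.2 CPM with inhibitor (interaction -4.01 ± 0.51, adjusted p = 0.0315). Tnc, tenascin C, had 281 and 332 CPM with TGFb1 + BMP4, 336 and 404 CPM with TGFb1, 145 and 123 CPM with BMP4 + inhibitor and 8.39 and 17.4 CPM with inhibitor (interaction -3.62 ± 0.43, adjusted p = 0.026). Col7a1, the anchoring fibril collagen, had 713 and 879 CPM with TGFb1 + BMP4, 937 and 1220 CPM with TGFb1, 429 and 293 CPM with BMP4 + inhibitor and 69.6 and 53.1 CPM with inhibitor (interaction -2.96 ± 0.34, adjusted p = 0.026). In each of the 3 the TGFb1 + BMP4 libraries were lower than the TGFb1 libraries and higher than those with BMP4 + inhibitor. Overlapping loci on the opposite strand of Thbs1 and Tnc, and a microRNA locus within Col7a1, were called below the sum as well. Eln, elastin, had an interaction of -3.38 (adjusted p = 0.217), with 138 and 584 CPM with TGFb1 + BMP4, 133 and 650 CPM with TGFb1, 11.1 and 10.1 CPM with BMP4 + inhibitor and 0.200 and 0.1 CPM with inhibitor.

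Markers of fibroblasts also differed between groups and replicates. The summed level of 12 fibroblast markers was 1436 and 6702 CPM with TGFb1 + BMP4, 1334 and 4649 CPM with TGFb1, 124 and 490 CPM with BMP4 + inhibitor and 28.6 and 115 CPM with inhibitor, higher in replicate 2 of every group. Of these markers 5 are also in the matrix list and carry most of the sum. The other 7 summed to 49.5 and 290 CPM with TGFb1 + BMP4, 54.9 and 206 CPM with TGFb1, 15.2 and 71 CPM with BMP4 + inhibitor and 5.6 and 16.1 CPM with inhibitor. Matrix genes differed in how far they shared this replicate pattern. In the groups with TGFb1 the replicates of Thbs1, Tnc and Col7a1 lay closer together. Other matrix genes were higher in replicate 2, as the markers were. Sparc had 329 and 1139 CPM with TGFb1 + BMP4 and 244 and 809 CPM with TGFb1, and Bgn 268 and 1193 CPM and 245 and 913 CPM. The matrix median of -1.81 takes in genes of both kinds. By limma, 0 of the 12 were called for the interaction, with 0 at an unadjusted p under 0.05 and 4 below the sum with the replicate block, and their median was -1.32. The 14 muscle markers summed to between 16.5 and 686 CPM, with the same order of groups and replicates, and 0 of the 10 tested were called by limma, with 1 at an unadjusted p under 0.05. The 9 epithelial markers summed to between 18620 and 27527 CPM in the 8 libraries, with Krt5 from 3399 to 4844 CPM. The immune marker Cd3e stayed under 0.15 CPM in every library. The 7 neural and glial markers summed to 4.35 and 7.19 CPM with TGFb1 + BMP4, 2.2 and 3.7 CPM with TGFb1, 108 and 115 CPM with BMP4 + inhibitor and 16.2 and 10.6 CPM with inhibitor. Tubb3, a tubulin best known from neurons, made up 107 and 114 CPM of the sum with BMP4 + inhibitor, while Elavl4 of the same list stayed under 0.15 CPM in every library. In bulk samples fewer cells of a type and less RNA per cell cannot be told apart, and the part of these other cells in the interactions was not tested.

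All 5 keratins typical of simple epithelia such as the intestinal lining were raised by TGFb1 alone, and 1 of them, Krt20, was called below the sum. Over all genes tested, TGFb1 alone raised 20%, and 0.989% lay below the sum. Krt20 had 384 and 513 CPM with TGFb1 + BMP4, 324 and 334 CPM with TGFb1, 21.6 and 15.7 CPM with BMP4 + inhibitor and 0.850 and 1.5 CPM with inhibitor. With TGFb1 its BMP4 effect was 0.43 ± 0.22 log2, not called, and BMP4 raised Krt20 by 3.18 ± 0.22 log2 with inhibitor (interaction -2.75 ± 0.32, adjusted p = 0.026). Krt7 had an interaction of -3.23 ± 0.55 with an adjusted p of 0.0522, and of 0.00658 with the replicate block. Krt8 (-1.62) and Krt19 (-1.45) were not called, and with the block the adjusted p of Krt8 was 0.0318. Krt18 had an interaction of -0.18 that was not called (interval -1.07 to 0.72).

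Of 6 keratins of esophageal and suprabasal layers, BMP4 lowered 4 with TGFb1 and 4 with inhibitor, against 1.09% and 2.91% of all genes. By limma, 0 of the 6 were called for the interaction, with 3 at an unadjusted p under 0.05 and 2 above the sum with the replicate block. Krt4 had 323 and 459 CPM with TGFb1 + BMP4, 3870 and 5200 CPM with TGFb1, 545 and 361 CPM with BMP4 + inhibitor and 4097 and 2824 CPM with inhibitor. Every library with BMP4 was below every library without it. BMP4 lowered Krt4 in both settings, with effects of -3.54 ± 0.31 log2 with TGFb1 and -2.94 ± 0.31 log2 with inhibitor, and the interaction was -0.60 (adjusted p = 0.477, interval -1.64 to 0.43). Krt13 was lowered as well, with effects of -1.35 ± 0.19 log2 with TGFb1 and -0.86 ± 0.19 log2 with inhibitor (interaction -0.49, interval -1.12 to 0.14). Krt15, a keratin of basal progenitor cells in the esophagus, had 70.9 and 64.7 CPM with TGFb1 + BMP4, 454 and 520 CPM with TGFb1, 27.0 and 20.0 CPM with BMP4 + inhibitor and 389 and 355 CPM with inhibitor. BMP4 lowered it in both settings, with effects of -2.83 ± 0.16 log2 with TGFb1 and -3.94 ± 0.16 log2 with inhibitor. The interaction of 1.11 ± 0.22 had an adjusted p of 0.0769, and of 0.0304 with the replicate block. The basal keratins Krt5 (-0.46) and Krt14 (-0.60) and the transcription factors Trp63 (0.24) and Sox2 (0.51) were not called. Krt1 stayed at or under 1 CPM in 7 of the 8 libraries and was not tested.

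In 21 genes below the sum BMP4 had no called effect with inhibitor and lowered the gene with TGFb1. Aqp5 (chr15:99590782-99594829, plus strand), a water channel, had 1.60 and 2.55 CPM with TGFb1 + BMP4, 28.6 and 46.9 CPM with TGFb1, 11.3 and 5.10 CPM with BMP4 + inhibitor and 3.00 and 2.05 CPM with inhibitor. Only the TGFb1 libraries were above 12 CPM, and the level with both ligands overlapped that with inhibitor. The BMP4 effect was -3.63 ± 0.40 log2 with TGFb1 and 1.31 ± 0.40 log2 with inhibitor (adjusted p = 0.099), an interaction of -4.95 ± 0.57 (adjusted p = 0.026). Sprr3 and Sprr1a encode small proline-rich proteins of the cornified envelope, the crosslinked layer under the membrane of dead squamous cells. Sprr3 had 89.4 and 125 CPM with TGFb1 + BMP4, 1037 and 1479 CPM with TGFb1, 893 and 730 CPM with BMP4 + inhibitor and 1890 and 1377 CPM with inhibitor. The double group was lower than all other libraries. The BMP4 effect was -3.54 ± 0.26 log2 with TGFb1 and -1.0 ± 0.26 log2 with inhibitor, and the interaction was -2.54 ± 0.37 (adjusted p = 0.039), one of the 22 deviations in the direction of the summed single effects. Sprr1a had 469 and 371 CPM with TGFb1 + BMP4, 918 and 1163 CPM with TGFb1, 1624 and 1525 CPM with BMP4 + inhibitor and 1206 and 1120 CPM with inhibitor (interaction -1.74 ± 0.24, adjusted p = 0.036). Over 42 cornified envelope genes tested, 2 lay below the sum and 0 above it, and with the block 7 lay below and 6 above. Of 9 kallikreins, which are secreted proteases of squamous epithelium, BMP4 lowered 6 with TGFb1 and 1 with inhibitor, against 1.09% and 2.91% of all genes. By limma, 0 of the 9 were called for the interaction, with 6 at an unadjusted p under 0.05, 3 below the sum with the replicate block and a median of -1.63. Serpinb11, a clade B serpin, had 135 and 126 CPM with TGFb1 + BMP4, 324 and 371 CPM with TGFb1, 307 and 277 CPM with BMP4 + inhibitor and 334 and 251 CPM with inhibitor (interaction -1.41 ± 0.22, adjusted p = 0.0451). Dhcr7, the last enzyme of cholesterol synthesis, had 32.0 and 31.6 CPM with TGFb1 + BMP4, 77.6 and 75.5 CPM with TGFb1, 84.0 and 101 CPM with BMP4 + inhibitor and 98.6 and 111 CPM with inhibitor (interaction -1.06 ± 0.17, adjusted p = 0.0475).

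**Figure D3:**
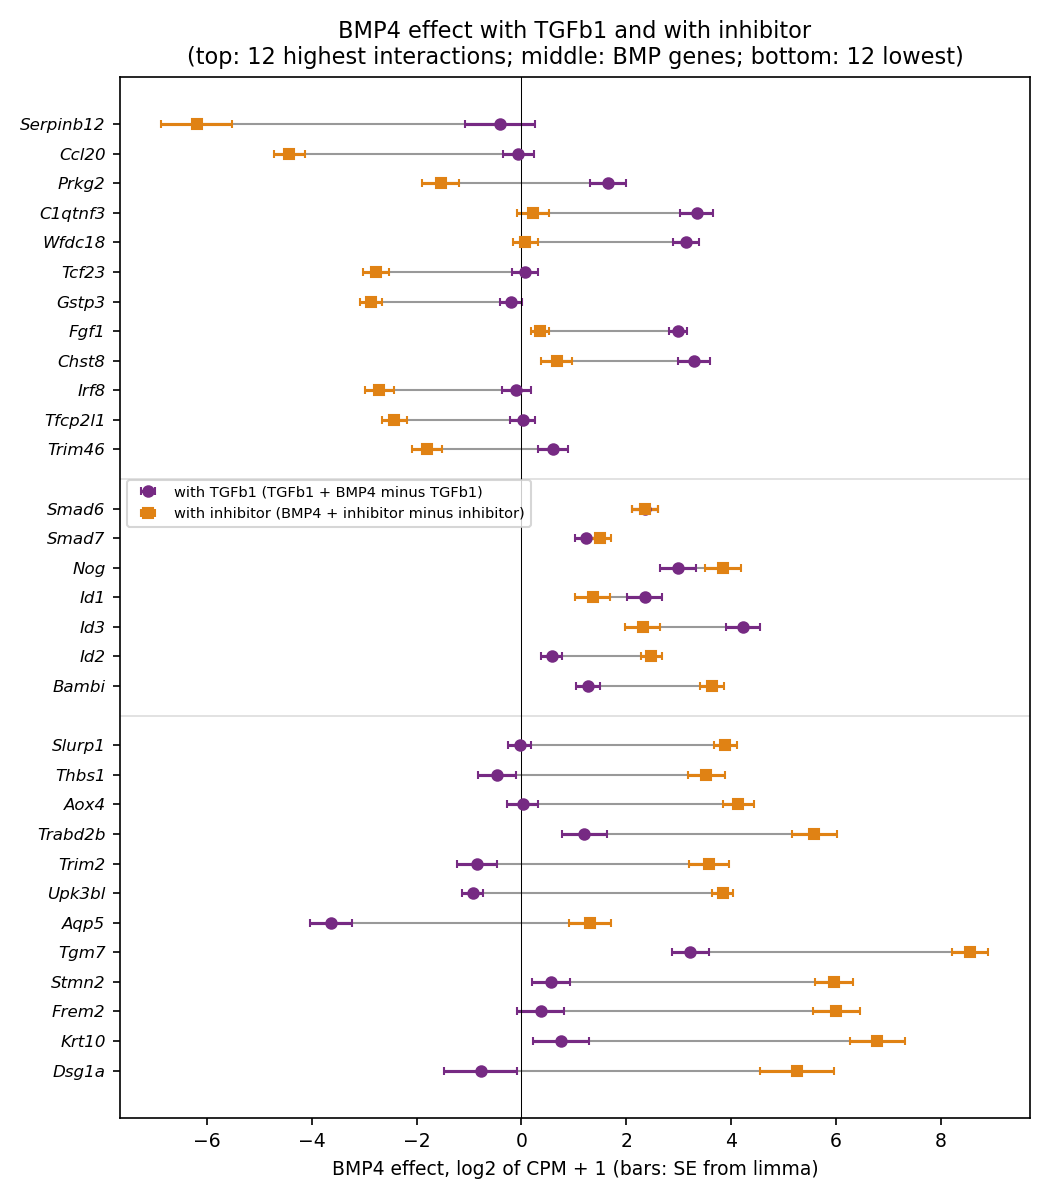
BMP4 effect in log2 with TGFb1 (purple circles) and with inhibitor (orange squares), with bars for the SE from limma, for the 12 highest interactions, 7 BMP pathway genes and the 12 lowest interactions, from top to bottom. The 2 symbols coincide for Smad6 at 2.36, while for Krt10 they stand at 0.75 and 6.79 and for C1qtnf3 at 3.34 and 0.22.

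Most genes above the sum were of 2 kinds. In 24 of the 48 each ligand alone lowered the gene, as in 307 of all 16180 genes tested. Over these 24 the BMP4 effect with TGFb1 had a median of 0.27 log2 (range -1.19 to 0.82) and was below 0 in 6. The choice of these 24 shares libraries with the interaction, so these values are descriptions. Serpinb12 (chr1:106934449-106957080, plus strand), a clade B serpin, had 0.05 and 0.799 CPM with TGFb1 + BMP4, 0.15 and 1.90 CPM with TGFb1, 1.05 and 5.00 CPM with BMP4 + inhibitor and 360 and 182 CPM with inhibitor. Its BMP4 effect was -0.41 ± 0.67 log2 with TGFb1, not called, and -6.2 ± 0.67 log2 with inhibitor (interaction 5.79 ± 0.95, adjusted p = 0.049). Ccl20, a chemokine of the mucosa, had 0.15 CPM in both TGFb1 + BMP4 libraries, 0.15 and 0.250 CPM with TGFb1, 0.1 and 0.999 CPM with BMP4 + inhibitor and 33.0 and 29.0 CPM with inhibitor (interaction 4.37 ± 0.41, adjusted p = 0.0198). Tcf23, Gstp3 and Irf8 were also among these 24, with interactions of 2.83, 2.68 and 2.60. In 6 of the 24 genes the mean was under 1 CPM in all 3 groups with a ligand. A further drop with both ligands was not detectable at this level. The floor also reached genes outside these 6, such as Serpinb12 and Tfcp2l1. Converted to CPM, the log2 sum was below 0 for Serpinb12 (-0.97) and Tfcp2l1 (-0.691). It was also below 0 for Ccl20 (-0.942), Tcf23 (-0.846), Gstp3 (-0.786) and Irf8 (-0.796), which are among the 6. No library can reach such a level, so with these single effects their interactions could only be positive. Tfcp2l1, a transcription factor, had 0.5 and 0.849 CPM with TGFb1 + BMP4, 0.550 and 0.750 CPM with TGFb1, 1.30 and 2.2 CPM with BMP4 + inhibitor and 12.1 and 15.2 CPM with inhibitor (interaction 2.44 ± 0.34, adjusted p = 0.0353). With 0.1 CPM in place of 1 CPM added before the log, none of these calls held. The adjusted p by limma was then 0.184 for Serpinb12, 0.0628 for Ccl20 and 0.0648 for Tfcp2l1. It was 0.0567 for Tcf23, 0.0731 for Gstp3 and 0.216 for Irf8. The summed immune markers were 31.2 and 79.7 CPM with TGFb1 + BMP4, 38.2 and 85.0 CPM with TGFb1, 67.6 and 68.9 CPM with BMP4 + inhibitor and 148 and 128 CPM with inhibitor, of which Cd68 made up 11 to 131 CPM, while Ptprc did not exceed 0.300 CPM in any library. Their part in Irf8 and Ccl20 was not tested.

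In the other kind, 16 of the 48 genes, BMP4 raised the gene with TGFb1 and had no called effect with inhibitor. C1qtnf3 (chr15:10952332-10980150, plus strand), a secreted C1q and TNF related protein, had 208 and 115 CPM with TGFb1 + BMP4, 16.9 and 12.2 CPM with TGFb1, 0.300 and 0.250 CPM with BMP4 + inhibitor and 0 and 0.200 CPM with inhibitor. BMP4 raised it by 3.34 ± 0.31 log2 with TGFb1 against an effect of 0.22 ± 0.31 log2 with inhibitor, where both groups were near the limit of detection (interaction 3.12 ± 0.44, adjusted p = 0.036). Wfdc18, a secreted protein with a whey acidic protein domain, had 110 and 71.7 CPM with TGFb1 + BMP4, 10.1 and 8.39 CPM with TGFb1, 0 and 0.1 CPM with BMP4 + inhibitor and 0 CPM in both inhibitor libraries (interaction 3.07 ± 0.34, adjusted p = 0.026). Fgf1, a fibroblast growth factor, had 30.9 and 31.2 CPM with TGFb1 + BMP4, 3.1 and 2.95 CPM with TGFb1, 0.650 and 0.350 CPM with BMP4 + inhibitor and 0.15 and 0.200 CPM with inhibitor (interaction 2.65 ± 0.24, adjusted p = 0.0197). Chst8, a sulfotransferase, had 24.9 and 18.5 CPM with TGFb1 + BMP4, 1.5 and 1.1 CPM with TGFb1, 1.25 and 0.300 CPM with BMP4 + inhibitor and 0 and 0.15 CPM with inhibitor. Its interaction of 2.62 ± 0.43 had an adjusted p of 0.0475, and of 0.0563 with median-of-ratios scaling. These 4 were among the 10 genes above the sum in which the 2 ligands gave more than their summed effects. In each of them both TGFb1 + BMP4 libraries were the highest of the 8. The calls depend on the 1 CPM added before the log. With 0.1 CPM added, the adjusted p by limma was 0.207 for C1qtnf3, 0.0822 for Fgf1 and 0.365 for Chst8. Their interactions were then 2.30, 2.23 and 1.74. This dependence was not limited to genes above the sum: of the 48 named genes called, 28 stayed called.

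Antioxidant genes were found on both sides. Gclm, a subunit of the enzyme that starts glutathione synthesis, had 67.7 and 70.0 CPM with TGFb1 + BMP4, 30.7 and 34.5 CPM with TGFb1, 70.0 and 65.1 CPM with BMP4 + inhibitor and 105 and 86.2 CPM with inhibitor. BMP4 raised it by 1.06 ± 0.13 log2 with TGFb1 against an effect of -0.49 ± 0.13 log2 with inhibitor that was not called (interaction 1.55 ± 0.18, adjusted p = 0.026). Gpx2, a glutathione peroxidase of epithelia, had 143 and 118 CPM with TGFb1 + BMP4, 63.8 and 57.1 CPM with TGFb1, 80.3 and 60.3 CPM with BMP4 + inhibitor and 115 and 106 CPM with inhibitor (interaction 1.75 ± 0.24, adjusted p = 0.0353, and 0.0552 with median-of-ratios scaling). Gsta3, a glutathione transferase, was below the sum at -3.32 ± 0.47 (adjusted p = 0.036), with 40.6 and 28.6 CPM with TGFb1 + BMP4, 75.9 and 38.3 CPM with TGFb1, 226 and 183 CPM with BMP4 + inhibitor and 33.9 and 28.3 CPM with inhibitor. Of 26 glutathione and NRF2 target genes tested these 3 were called, and with the replicate block 5 lay below the sum and 3 above it. Prkg2, a cGMP-dependent protein kinase, was above the sum with BMP4 effects of opposite sign. It had 39.2 and 42.4 CPM with TGFb1 + BMP4, 11.9 and 12.7 CPM with TGFb1, 2.70 and 7.10 CPM with BMP4 + inhibitor and 13.2 and 16.9 CPM with inhibitor. Its BMP4 effect was 1.65 ± 0.35 log2 with TGFb1 (adjusted p = 0.0741) and -1.54 ± 0.35 log2 with inhibitor, which was called, and the interaction was 3.19 ± 0.49 (adjusted p = 0.0436).

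Genes close to additivity with a change from each ligand also existed. Among genes with both single effects called in the same direction, Smad7, Pfn2, Runx2os1 and Serpinb9 went up and Cd68 and Riox2 went down with an interval within 1 log2 unit of the sum. Runx2os1 is antisense to Runx2 and may share its reads. Serpinb9, an intracellular inhibitor of granzyme B, had 22.5 and 21.5 CPM with TGFb1 + BMP4, 11.3 and 7.84 CPM with TGFb1, 3.75 and 2.60 CPM with BMP4 + inhibitor and 0.700 and 1.1 CPM with inhibitor (interaction 0.01, interval -0.81 to 0.82). Cd68, a lysosomal membrane protein, had 11 and 12.5 CPM with TGFb1 + BMP4, 23.9 and 34.6 CPM with TGFb1, 51.9 and 47.2 CPM with BMP4 + inhibitor and 131 and 106 CPM with inhibitor (interaction 0.01, interval -0.66 to 0.68). In both, the 4 groups did not overlap and stood in steps. Of the 538 genes that each ligand alone raised, 85 lay below the sum, 0 above it and 98 within 1 log2 unit, with a median interaction of -1.02. Of the 307 that each alone lowered, 24 lay above, 0 below and 54 within, with a median of 0.93. These single effects and the interaction share the inhibitor libraries, so choosing genes on both effects pushes the interaction towards these signs, and the medians are descriptions. On the CPM scale additivity means a sum of level changes. There 152 of the 160 genes below the log2 sum were also below and 8 were above. All 48 genes above the log2 sum were also above. For genes such as Serpinb12 (-267 CPM) and Ccl20 (-30.3 CPM) the sum of level changes was below 0, so they could only lie above it.

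Over the other lists few members were called. By limma, 0 of 35 S phase and mitosis genes were called, against 1.29% of all genes. At an unadjusted p under 0.05 there was 1, and 0 were called with the replicate block. Of the 35 estimates 32 were below 0, against 6333 of 16180 over all genes. Their median was -0.78, against 0.12. Mki67, a proliferation marker, had an interaction of -2.62 (interval -5.75 to 0.51). Of 30 cholesterol and fatty acid synthesis genes tested, 1 was called by limma, Dhcr7. Here 28 of the 30 estimates were below 0, with a median of -0.5. With the replicate block 7 lay below the sum and 1 above it. BMP4 lowered 9 of these 30 genes with TGFb1 and 4 with inhibitor, against 1.09% and 2.91% of all genes. Of 30 ribosomal protein genes 0 were called by limma, with 0 at an unadjusted p under 0.05, and of 31 glycolysis and hypoxia genes 0, with 4 at an unadjusted p under 0.05 and, with the block, 2 below the sum and 1 above it. Of 28 interferon stimulated genes 0 were called by limma, with 4 at an unadjusted p under 0.05 and 2 below the sum with the block. Btc and Errfi1 of the EGF family, Cldn23 of the tight junction list, Dkk3 of the Wnt pathway list, Igfbp3 of the YAP and TEAD list, and Plau and Adam12 of the matrix protease list were below the sum, with interactions from -3.22 for Igfbp3 to -0.81 for Errfi1. Igfbp3, an IGF binding protein, had 719 and 550 CPM with TGFb1 + BMP4, 419 and 318 CPM with TGFb1, 576 and 303 CPM with BMP4 + inhibitor and 32.6 and 19.2 CPM with inhibitor. All 6 libraries with a ligand lay above both inhibitor libraries, and both TGFb1 + BMP4 libraries lay above both TGFb1 libraries. Lgr6, a receptor of R-spondins, was raised by BMP4 in both settings, by 4.34 ± 0.74 log2 with TGFb1 and 5.96 ± 0.74 log2 with inhibitor, with 717 and 501 CPM with TGFb1 + BMP4, 38.0 and 21.5 CPM with TGFb1, 159 and 27.1 CPM with BMP4 + inhibitor and 0.05 and 0.1 CPM with inhibitor. Its interaction of -1.62 was not called (adjusted p = 0.433, interval -4.14 to 0.89).

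**Figure D4:**
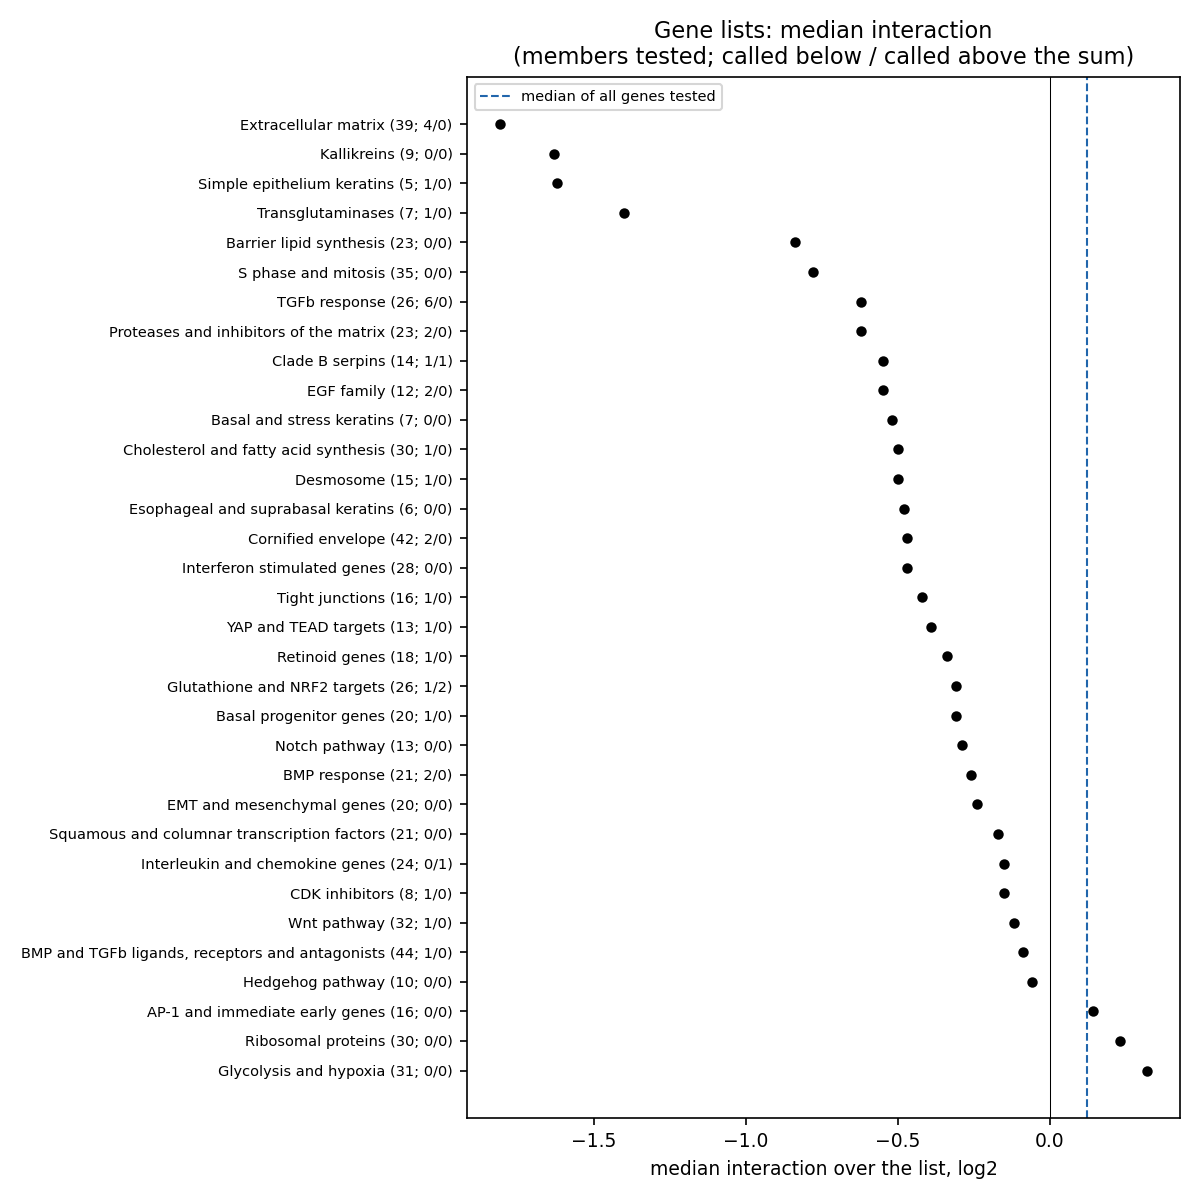
Median interaction (log2, x axis) of each gene list with 5 or more members tested, with the number tested and the numbers called below and above the sum beside its name, and a dashed line at the median of all genes, 0.12. Extracellular matrix genes stand lowest at -1.81 and glycolysis and hypoxia genes highest at 0.32.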

How the data were processed

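Bulk RNA-seq values of 8 libraries were used, 2 in each of the groups TGFb1 + BMP4, TGFb1, BMP4 + inhibitor and inhibitor. Per the submitters' processing notes the tools named are STAR 2.5.3a, Cell Ranger 3.1.0, HTSeq and edgeR, on GRCm38 (mm10), with no roles given, and the Ovation Solo kit was used for library preparation, per the labels. The deposited table gives whole-number values per gene, treated here as a score because each library sums to between 20011215 and 20013233, so that depth before scaling is unknown and no count test was used, and the authors' CPM, which match that score rescaled by library total (largest difference 0.000500). It also holds the authors' deposited log2 fold changes and their p-value adjusted as a false discovery rate. In that authors' deposited table all 208 called genes have the same sign of the both-ligand log2 change minus the 2 single ones. Those changes come from the same 8 libraries and form the same contrast, so the shared sign follows from the calls and is no separate support.

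From the CPM, log2(CPM + 1) was fitted with limma 3.58.1 in R 4.3.3 (group means, empirical Bayes with trend, 4 residual degrees of freedom, two-sided, Benjamini-Hochberg adjustment over 16180 genes). The 6 contrasts came from this fit. The log scale understates changes of low genes, and 3 units of the deposited value are 0.15 CPM. Same-numbered libraries deviated together (correlations 0.324 to 0.738 over the 6 pairs of groups). The numbers were therefore used as a block in an alternative fit, although the labels do not say what they share. The main fit and its p-values do not use the replicate number. Named genes are the 12 lowest and 12 highest called interactions at a mean of 5 CPM or more in a group (predicted or numbered symbols left out), up to 3 called genes per list, a set of genes of interest, and 6 near-additive genes. The members and lists were chosen with earlier results of these data known. Overlap was checked in GENCODE M21: 31 of 203 called genes overlap another called gene, and no source used here states whether counting used strand. The alternatives were other scaling, filters, pseudocount, trend, a minimum change, the replicate block and each library left out. The fit was tested on simulated data at a dispersion of 0.03. There it called 13 of 100 2-fold interactions, 85 of 100 4-fold ones and 7 of 14444 unchanged genes. The simulated libraries had no shared replicate effect, unlike the real ones. Some genes of the lists are not reported here.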

Additional observations from a re-analysis of the deposited data

Results flagged for a closer look

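In 14 of the 208 called genes BMP4 had a called effect in both settings and the effects ran in opposite directions, which the interaction itself tests. In 12 of them BMP4 lowered the gene with TGFb1 and raised it with inhibitor: Vwa1, Ocm, Csta1, Emp1, Cpn1, Paqr5, Ttc9, Crnn and 4 genes with clone or predicted symbols (Gm45767, BC117090, BC100530 and Gm15845). Csta1, a cysteine protease inhibitor of the cornified envelope, had 96.3 and 77.6 CPM with TGFb1 + BMP4, 181 and 204 CPM with TGFb1, 114 and 92.2 CPM with BMP4 + inhibitor and 27.8 and 30.7 CPM with inhibitor (BMP4 effect -1.14 log2 with TGFb1 and 1.77 log2 with inhibitor, interaction -2.92 ± 0.22, adjusted p = 0.0172 in limma). Csta1, BC117090 and BC100530 belong to a family of similar stefin genes, so their reads may be shared. Emp1, a membrane protein of epithelia, had 993 and 927 CPM with TGFb1 + BMP4, 2120 and 2241 CPM with TGFb1, 1367 and 1083 CPM with BMP4 + inhibitor and 700 and 610 CPM with inhibitor (interaction -2.08 ± 0.22, adjusted p = 0.025 in limma). In the other 2 genes, Rev1 and Tle1, BMP4 raised the gene with TGFb1 and lowered it with inhibitor. Tle1, a transcriptional corepressor, had 44.5 and 48.4 CPM with TGFb1 + BMP4, 17.6 and 21.2 CPM with TGFb1, 12.8 and 18.3 CPM with BMP4 + inhibitor and 26.4 and 29.6 CPM with inhibitor (interaction 2.05 ± 0.27, adjusted p = 0.0326 in limma).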

How the results depend on the processing

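Of the 48 named genes called, 44 stayed called with median-of-ratios scaling, 40 of 41 with 1 CPM required in 4 libraries and 28 with a pseudocount of 0.1. It was 34 without the trend, 47 with a minimum interaction of 1, 48 with the replicate block and 2 without a filter. None of the 48 changed direction under any alternative run. Filters, trend, minimum change and block leave the estimates unchanged. Only the scaling, the pseudocount and the left-out libraries could have changed a direction. Without a filter 27 genes were called (20 below and 7 above the sum, 26 less and 1 more than additive), 23468 had an interval within 1 log2 unit, and BMP4 had 80 calls with TGFb1 and 751 with inhibitor. With a pseudocount of 0.1, 27 lay above the sum and 11 were more than additive; without the trend 14 were more than additive; with a minimum change of 1, BMP4 with inhibitor had 835 calls. With the replicate block 1117 were called (689 below, 428 above, 1014 less and 103 more than additive), and BMP4 had 1121 calls with TGFb1 and 3502 with inhibitor. Among named genes not called without the block, Id3, Krt15, Krt7, Krt8, Pmepa1, Ppbp, Skil and Vim were called with it, as were Dsg1c, Tgm3 and Tgm5. Beyond these it changed no call of the genes chosen by the naming rule. With 1 library left out, the calls ranged from 0 to 602 (0 to 380 below, 0 to 222 above, 0 to 577 less and 0 to 44 more than additive), 5934 to 7799 genes lay within 1 log2 unit, and BMP4 had 19 to 315 calls with TGFb1 and 188 to 2300 with inhibitor. The lone library left in a group is then assumed to vary like the others, with 3 residual degrees of freedom. The cause of these changes was not tested.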
